A study of Homo sapiens with 4 samples.

Results

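The plasminogen activators PLAU and PLAT, the urokinase receptor PLAUR, the matrix metalloproteinases MMP1, MMP7, MMP10, MMP13 and MMP14, and the inhibitors TIMP1 and TIMP2 were examined in PK-1 cells. PK-1 is an established human pancreatic cancer line that grew from a well-differentiated ductal adenocarcinoma. The genes were taken by symbol, and all 10 were found once each among the 53826 entities of the deposited tables. With 1 library for each of the 4 conditions, differences could not be set against a replicate spread and were not tested. Stable SPRR1A cells carried a retroviral vector (pMXs) with FLAG-tagged SPRR1A, a cornified envelope protein of squamous epithelium, and stable DsRed cells carried the same vector with a red fluorescent protein. Transient SPRR1A and transient GFP cells were transfected with a plasmid (pCAG) carrying FLAG-tagged SPRR1A or green fluorescent protein, and RNA was isolated 48 h later. The sources used here do not state whether the stable cells were a clone or what share of the cells took up the plasmid. In bulk RNA, fewer expressing cells and less RNA per cell cannot be told apart.

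Urokinase (PLAU) and tissue plasminogen activator (PLAT) are serine proteases that cut plasminogen into plasmin. Urokinase acts largely at the cell surface, where it is held by its receptor PLAUR, and plasmin digests fibrin and can activate latent metalloproteinases. MMP1 and MMP13 are secreted collagenases, MMP10 is a stromelysin, MMP7 (matrilysin) is a small secreted enzyme of epithelia, and MMP14 is anchored in the membrane. TIMP1 and TIMP2 bind and block the active enzymes, and TIMP2 also takes part in the activation of pro-MMP2 by MMP14. In pancreatic cancer these genes are made both by tumor cells and by stroma, so a cell line shows the tumor cell part alone.

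Sequences upstream of the transcript start are shown for the members whose windows held a match, because the matched motifs differed between them. Any link between the motifs and the levels of the members was not tested. RefSeq (GRCh38.p14) listed 7 promoters for 6 members. PLAT, MMP1, MMP13 and TIMP2 had no entry in the table used. The 250 bases upstream of each start were searched on both strands for 5 short motifs, and in these promoters no match to one of them overlapped a match to another. The site of AP-1 factors was searched as TGANTCA. The letters used for the TATA box were TATAAA. The GC box of Sp1-type factors was taken as GGGCGG. For ETS factors the PEA3 site was read as AGGAAG. The cAMP response element (CRE), TGACGTCA, had no match in any of these promoters. In the lines that follow, 60 bases are given from -80 to -21, counted from the start, except for PLAUR, where 30 bases run from -200 to -171. Matches to AP-1, TATA and the GC box are in capitals, and the PEA3 matches lie outside these stretches.
MMP7, chr11:102530768-102530827, minus strand: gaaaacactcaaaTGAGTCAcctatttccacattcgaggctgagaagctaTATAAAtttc
MMP10, chr11:102780649-102780708, minus strand: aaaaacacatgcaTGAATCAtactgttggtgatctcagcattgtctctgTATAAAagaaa
PLAUR, chr19:43670340-43670369, minus strand: tgatcacaactccaTGAGTCAgggccgagc
PLAU, chr10:73911052-73911111, plus strand: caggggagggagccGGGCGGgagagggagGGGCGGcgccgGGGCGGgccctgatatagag
MMP14, chr14:22836505-22836564, plus strand: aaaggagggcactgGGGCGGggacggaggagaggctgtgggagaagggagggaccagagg
TIMP1, chrX:47582356-47582415, plus strand: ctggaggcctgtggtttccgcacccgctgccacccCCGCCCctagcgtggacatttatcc

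MMP7 and MMP10 each held an AP-1 match that began at -67 and a TATA match, at -30 in MMP7 and at -31 in MMP10. PLAUR held an AP-1 match at -186 and a PEA3 match on the opposite strand at -15, but no TATA match or GC box, and in GENCODE the stretch shown lies in the first exon of a PLAUR transcript that starts further upstream. PLAU held 3 GC boxes in its downstream promoter, which started at 73911132, with a PEA3 match at -221, and none of the motifs in its upstream promoter, and the shown window also lies in an exon of C10orf55 on the opposite strand. MMP14 held 1 GC box, and TIMP1 held 2, on the opposite strand, and a PEA3 match at -87. MMP7 also held PEA3 matches on the opposite strand at -169 and -145. The share of 35116 promoters of the same length with a match was 6.57% for AP-1, 10.7% for TATA, 42.6% for the GC box, 28.7% for PEA3 and 1.65% for CRE. A match is a description of the letters and says nothing of whether a factor was bound.

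**Figure D1:**
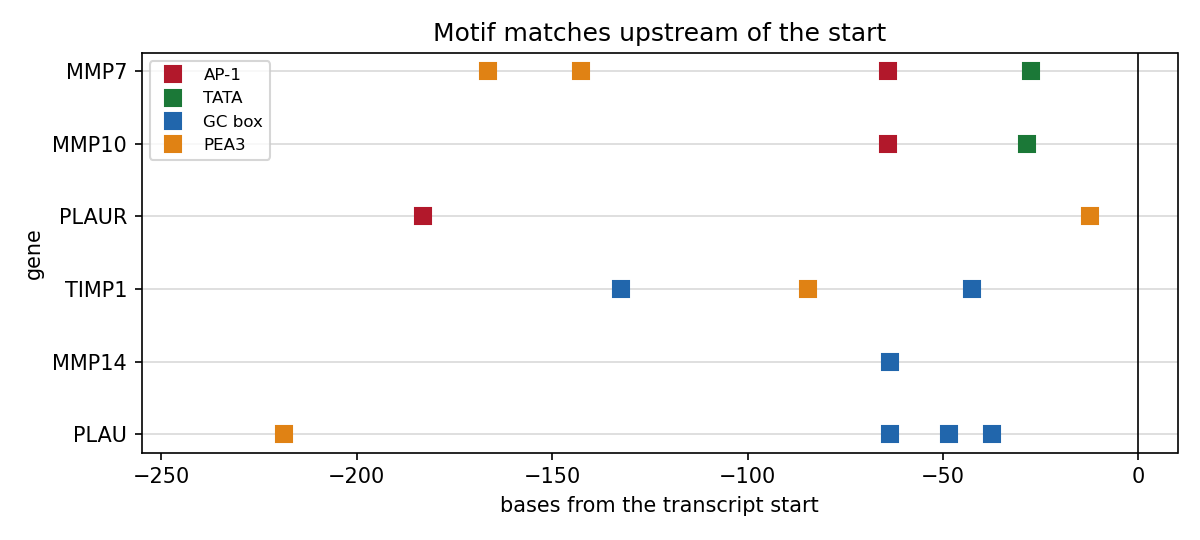
Matches to AP-1, TATA, GC box and PEA3 in the 250 bases upstream of the transcript start, in bases from the start, for the 6 members listed in the promoter table. Squares mark the centre of a match. AP-1 and TATA matches lie at like distances in MMP7 and MMP10, GC boxes are found in PLAU, MMP14 and TIMP1, and PEA3 matches in PLAU, PLAUR, MMP7 and TIMP1.

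The values are log2 TPM (transcript abundance), a unit corrected for transcript length and for library size, so that levels can be compared between genes. A value of 0 is a floor and stands for a TPM of 1 or less. Between 12964 and 13558 entities per library lay above the floor. SPRR1A itself was at 10.93 in the stable SPRR1A library and at 0.75 in its DsRed control, and at 16.60 and 3.56 in the transient SPRR1A and GFP libraries, in the order the labels give. In the transient SPRR1A library it took 9.90% of the TPM total, which by itself lowers every other entity by 0.15 on the log2 scale (shift -0.15). Of 8 ductal epithelial markers, 7 were above the floor in every library, led by KRT18 (12.36 to 12.94), KRT7 (12.20 to 12.82) and KRT8 (12.23 to 12.76). MUC1 was near the floor in all of them, at 0.51 and 0 in the stable SPRR1A and DsRed libraries and 0.90 and 0.80 in the transient SPRR1A and GFP libraries. Among markers of other cells, 6 of 7 for fibroblasts, 3 of 5 for leukocytes and 4 of 4 for endothelium were at 0 in all libraries, with DCN, LUM, FAP, PTPRC and PECAM1 among them. The exceptions were COL1A1 (1.96 to 2.62), the lysosomal CD68 (3.99 to 4.91) and LYZ (2.15 to 2.70).

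PLAU was the highest member in every library. Its level was 8.26 and 8.22 in the stable SPRR1A and DsRed libraries and 8.75 and 8.84 in the transient SPRR1A and GFP libraries, or 298 to 458 TPM. It stood above 96.3% to 97.9% of the entities over the floor, and alone it held 31.8% to 37.5% of the summed TPM of the members. PLAU lies on chromosome 10 from 73908832 to 73917494, and its exons share 915 bp with those of C10orf55, an antisense RNA. C10orf55 was listed at 0.84 to 1.88, and whether counting used the strand is not given in the sources used here.

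PLAT, at 6.84, 6.67, 6.88 and 7.06 in the same order of libraries, came after PLAU, TIMP1 and MMP14 in each of them. PLAU exceeded PLAT 2.68-fold and 2.93-fold in the stable SPRR1A and DsRed libraries and 3.63-fold and 3.44-fold in the transient SPRR1A and GFP libraries. PLAT lies on chromosome 8 from 42174718 to 42207565 and overlaps no other gene in GENCODE 44. The receptor PLAUR, on chromosome 19 from 43646095 to 43670169, was at 5.51 with stable SPRR1A and 5.50 with stable DsRed. With transient SPRR1A it was at 6.35 and with GFP at 6.46, both above the stable libraries.

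**Figure D2:**
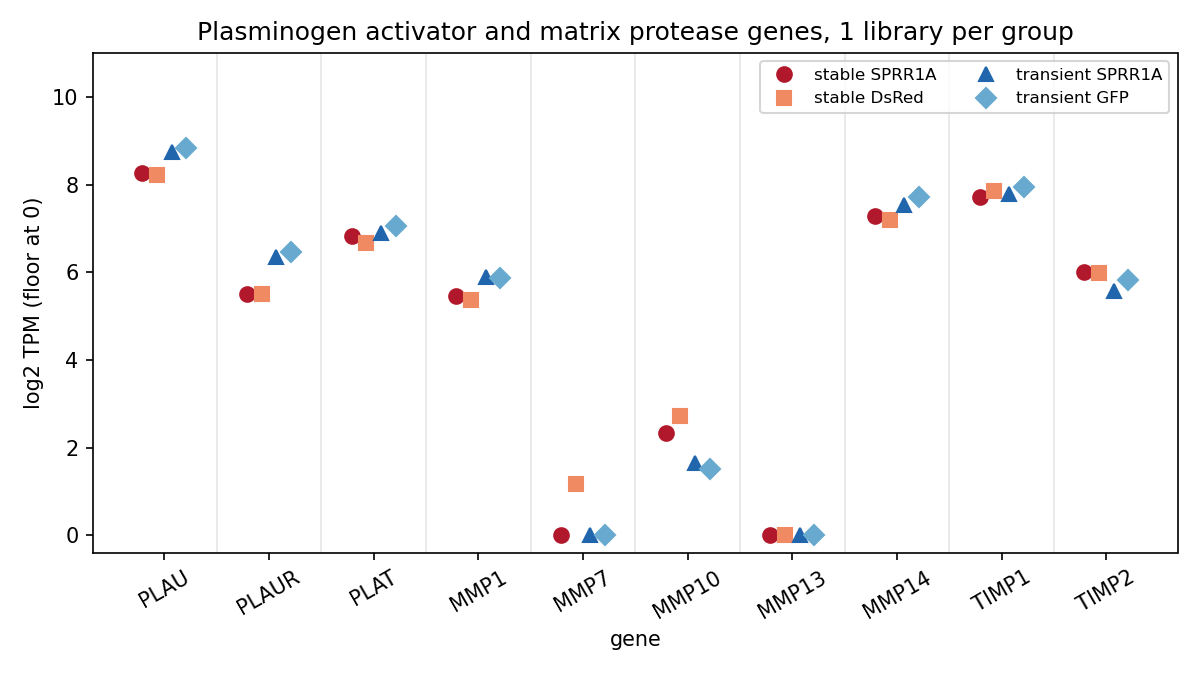
The log2 TPM of each member (y axis, floor at 0) in the 4 libraries, 1 point per library. PLAU, TIMP1, MMP14 and PLAT are the highest in every library, MMP13 is at 0 throughout, and MMP7 is above 0 in stable DsRed cells alone.

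Among the metalloproteinases, MMP14 was the highest in every library. It was at 7.29 and 7.20 in the stable SPRR1A and DsRed libraries and 7.54 and 7.72 in the transient SPRR1A and GFP libraries, and lies on chromosome 14 from 22836585 to 22847758. MMP1 followed, at 5.46 and 5.36 in the stable and 5.89 and 5.87 in the transient libraries. MMP10 was far lower, at 2.33 and 2.72 in the stable and 1.64 and 1.51 in the transient libraries, which corresponds to 2.85 to 6.61 TPM. MMP7 was listed at 1.17 in stable DsRed cells and at 0 in the other 3 libraries. MMP13 was listed at 0 in all 4.

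MMP1, MMP7, MMP10 and MMP13 belong to a cluster of 9 metalloproteinase genes within 435.2 kb on chromosome 11, from 102520508 to 102955732. Only MMP1, MMP10 and MMP7 of the 9 were above the floor in any library, and 6 were at 0 in all 4 (MMP20, MMP27, MMP8, MMP3, MMP12 and MMP13). MMP10, from 102770502 to 102780628, and MMP1, from 102789919 to 102798160, are neighbours. MMP1 exceeded MMP10 8.74-fold and 6.23-fold in the stable SPRR1A and DsRed libraries, against 19.0-fold and 20.6-fold in the transient SPRR1A and GFP libraries. The gap between the neighbours was thus wider in both transient libraries. MMP1 shares 223 bp of exon with the antisense pseudogene WTAPP1, which was listed at 0 in all libraries.

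**Figure D3:**
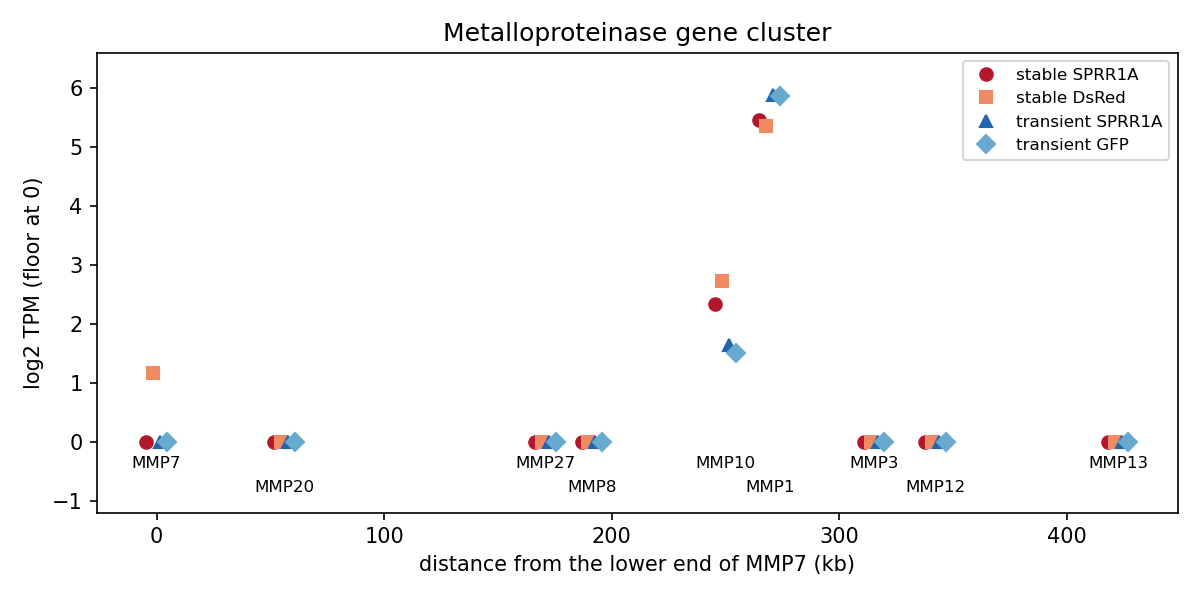
The log2 TPM (y axis, floor at 0) of the 9 metalloproteinase genes of the chromosome 11 cluster, placed by the distance of each gene from the lower end of MMP7 in kb, with 1 point per library and small sideways shifts so that points do not hide each other. MMP1 and its neighbour MMP10 stand above the floor in all libraries and move in opposite directions between stable and transient cells.

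Both inhibitors were well expressed. TIMP1, on chromosome X from 47582436 to 47586789, was at 7.72 and 7.85 in the stable SPRR1A and DsRed libraries and 7.78 and 7.93 in the transient SPRR1A and GFP libraries. It had the narrowest range of the 7 members that reached a TPM of 5 in every library (0.22 on the log2 scale). TIMP1 lies within SYN1 on the opposite strand without sharing exons, and SYN1 was listed at 0 throughout. TIMP2, on chromosome 17 from 78852977 to 78925387, was at 6.01, 5.98, 5.56 and 5.83, and shares 224 bp of exon with CEP295NL, which was at 0 in every library. Its exons also share 367 bp with a long noncoding RNA on the opposite strand that has no gene symbol. That RNA was not listed under its GENCODE identifier among the entities, so its level is not known here. MMP14 exceeded TIMP2 2.42-fold and 2.33-fold in the stable SPRR1A and DsRed libraries and 3.94-fold and 3.70-fold in the transient SPRR1A and GFP libraries. TIMP1 exceeded TIMP2 3.26-fold, 3.65-fold, 4.66-fold and 4.29-fold in the same order. These ratios are taken within a library, so the scaling of the library does not enter them.

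To see whether the protease genes differed with stable SPRR1A overexpression, stable SPRR1A cells were compared with stable DsRed cells by the 2-fold rule of the study, a log2 difference above 1 or below -1. Of the 10 members, 9 exceeded the floor in either library and 1 was past the threshold. Over all 13310 entities that exceeded the floor in either library, the share was 0.947%. It was MMP7, which was 1.17 lower in SPRR1A cells (log2 difference -1.17). Its value in DsRed cells was low and the SPRR1A library lists it at 0, so the size of the difference depends on how the floor is read. It was -0.70, no longer past the threshold, on the log2(TPM + 1) scale, and past it at -1.10 on the log2(TPM + 0.1) scale and at -1.70 on the log2(TPM + 1) scale with the floor taken as a TPM of 0.

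The other members stayed close to their control. PLAU differed by 0.04, PLAUR by 0.0031, PLAT by 0.17, MMP1 by 0.10, MMP14 by 0.09 and TIMP2 by 0.03 on the log2 scale, all with the higher value in SPRR1A cells. After subtraction of the median difference of 9835 well expressed entities (those that reached a TPM of 5 in both libraries), which was 0.06, PLAU, PLAUR and TIMP2 were on the lower side. TIMP1 was 0.13 lower (log2 difference -0.13), and 10.7% of those entities were as low or lower. MMP10 was 0.39 lower (log2 difference -0.39), the lowest of the 8 well expressed members, and 0.712% of those entities were as low or lower. At the level of MMP10 the spread is wider, with a median difference of 0.11 and an SD of 0.34 over 3002 entities with a mean log2 TPM from 1 to 3. Of the 8 well expressed members 0 differed by more than 0.5, and 1.14% of the well expressed entities did. After centring these were 0 of 8 and 0.966%.

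In transient cells, where the SPRR1A level was far higher, no member was past the 2-fold threshold against GFP cells (0 of 10), and 0.889% of 13717 entities were. MMP7 and MMP13 were listed at 0 in both libraries. Of the 7 well expressed members, 6 were lower and 1 higher in SPRR1A cells, but the median over 10154 well expressed entities was itself -0.18, and against that median 6 were higher and 1 lower. The differences were -0.09 for PLAU, -0.12 for PLAUR, -0.17 for PLAT, -0.18 for MMP14, -0.15 for TIMP1 and -0.27 for TIMP2. MMP1 differed by 0.02, which is 0.20 above the median of all, and 4.59% of the well expressed entities were as high or higher. The SD at the level of MMP1 (mean log2 TPM from 5 to 7) was 0.10 over 3438 entities. MMP10, below the TPM of 5 in both libraries, differed by 0.14. Of the 7 well expressed members 0 differed by more than 0.5, and 1.17% of the well expressed entities did. After centring these were 0 of 7 and 0.620%.

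Which members kept their direction across the models depended on the scaling. Of the 8 members above the floor in every library, 2 kept it in the deposited values, MMP1 (higher in SPRR1A cells of both models) and TIMP1 (lower in both). PLAU, PLAUR, PLAT, MMP14 and TIMP2 were slightly higher in stable SPRR1A cells than in their control and slightly lower in transient SPRR1A cells, and MMP10 was lower in stable and higher in transient SPRR1A cells. After centring, 4 kept their direction. PLAT (0.11 and 0.0078 in the stable and transient model), MMP14 (0.03 and 0.00068) and MMP1 (0.04 and 0.20) were above the median in both and TIMP2 below it (-0.03 and -0.09), while TIMP1 was at -0.19 and 0.03. In the transient model PLAT and MMP14 lay too close to the median for their side to carry meaning. The SD there was 0.10 at the level of PLAT (mean log2 TPM from 5 to 7) and 0.07 at that of MMP14 (from 7 to 9). When the TPM total was taken without SPRR1A, 4 kept their direction as well, with PLAU, PLAUR and MMP1 higher and TIMP1 lower in both models. The difference of TIMP1 in the transient model was then only -0.0032. MMP1 kept and MMP10 changed direction under all of these scalings. No test of this contrast between the models was possible with single libraries. The share of all entities that kept their direction was not computed, so the counts above have no background beside them. The median of all well expressed entities was itself 0.06 for stable SPRR1A against DsRed and -0.18 for transient SPRR1A against GFP. Whether the changes of direction in the deposited values only follow these shifts was not tested.

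**Figure D4:**
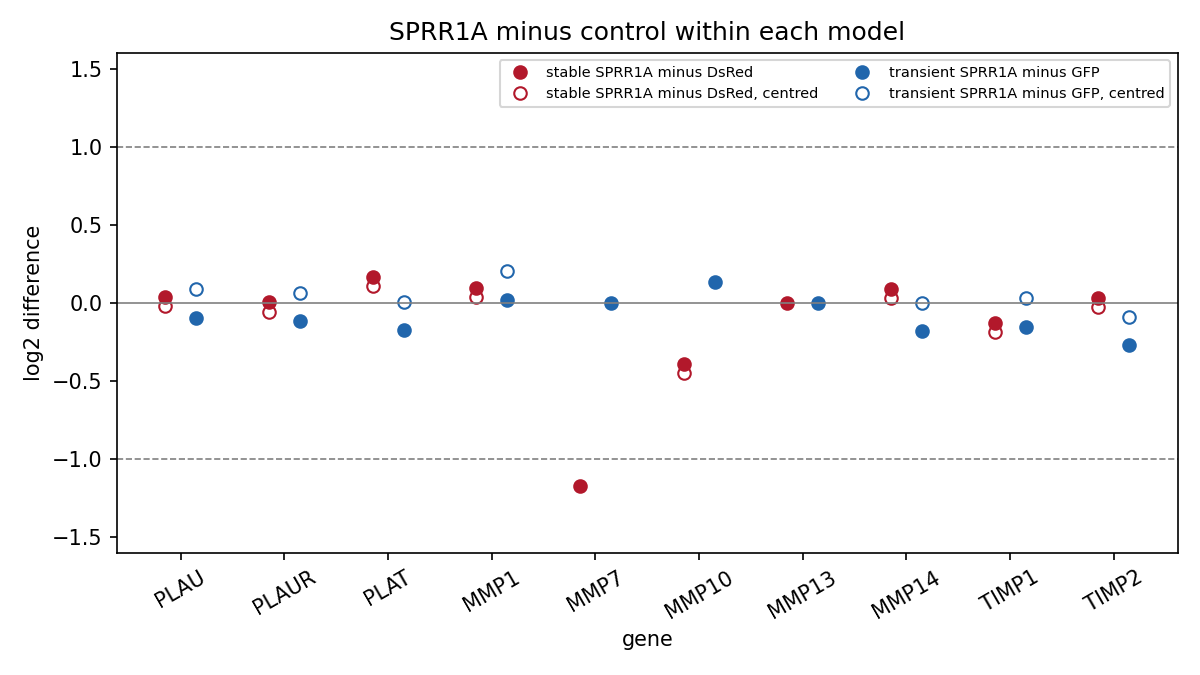
The log2 difference of each member between SPRR1A and control cells, for both models. Filled points are the deposited values and open points, for well expressed members, are after subtraction of the median over all such entities. Dashed lines mark the 2-fold threshold, which MMP7 alone passes, in the stable model.

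Larger gaps lay between the models. Transient and stable cells differ in vector, delivery, control protein, culture history and SPRR1A dose, and these cannot be told apart. The comparisons between the models use the same libraries as those within them. Of the 7 members that reached a TPM of 5 in every library, 5 (PLAU, PLAUR, PLAT, MMP1 and MMP14) were above both stable libraries in both transient ones, as were 30.2% of 9658 such entities. TIMP2 alone was below both, as were 31.6%, and TIMP1 overlapped.

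Between the controls, 9 of the 10 members exceeded the floor in either library. Of the 10, 2 were past the 2-fold threshold, and 7.52% of 13761 entities above the floor were. Both were lower in GFP cells, MMP7 with a log2 difference of -1.17 and MMP10 with -1.22, and on the log2(TPM + 1) scale they were at -0.70 and -0.98, no longer past the threshold. On the log2(TPM + 0.1) scale both were past it (-1.10 and -1.19), and with the floor taken as a TPM of 0 on the log2(TPM + 1) scale MMP7 was (-1.70) and MMP10 was not (-0.98). By contrast, PLAUR was 1.95-fold higher (log2 difference 0.96), just inside the threshold, and 3.71% of 9810 well expressed entities were as high or higher. PLAU was 1.54-fold, MMP14 1.43-fold and MMP1 1.42-fold higher in GFP than in DsRed cells. These 4 of the 7 well expressed members were past 0.5 on the log2 scale, as were 20.6% of the well expressed entities, and after centring on the median of all (0.12) only PLAUR was, at 0.84, beside 18.6% of those entities. PLAT differed by 0.39, TIMP1 by 0.09 and TIMP2 by -0.15.

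Between the SPRR1A libraries, 8 of the 10 members exceeded the floor in either library. Of the 10, 0 were past the 2-fold threshold, and 3.59% of 13549 entities above the floor were. PLAUR was the furthest from its stable value among the members, 1.79-fold higher in transient cells (log2 difference 0.84), and 1.80% of 9843 well expressed entities were as high or higher. It was the 1 of 7 well expressed members past 0.5, against 12.0% of the well expressed entities. PLAU was at 0.49 and MMP1 at 0.43, and after centring on the median of all (-0.11) they were at 0.60 and 0.55, so that 3 of 7 were past 0.5, as were 11.7% of the well expressed entities after centring. MMP14 differed by 0.25, TIMP1 by 0.06 and PLAT by 0.05. TIMP2 was 0.45 lower (log2 difference -0.45) and MMP10 0.69 lower (-0.69). The summed TPM of the members was 946 and 936 in the stable SPRR1A and DsRed libraries and 1144 and 1254 in the transient SPRR1A and GFP libraries.

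CD68 and LYZ, the leukocyte markers above the floor, were also higher in the transient libraries, CD68 by 0.90 and LYZ by 0.45 between the controls, and their part in the result was not tested. PTPRC, the defining leukocyte marker, was at 0 in every library, and the summed TPM of the leukocyte list was 20.3 to 36.5.

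**Figure D5:**
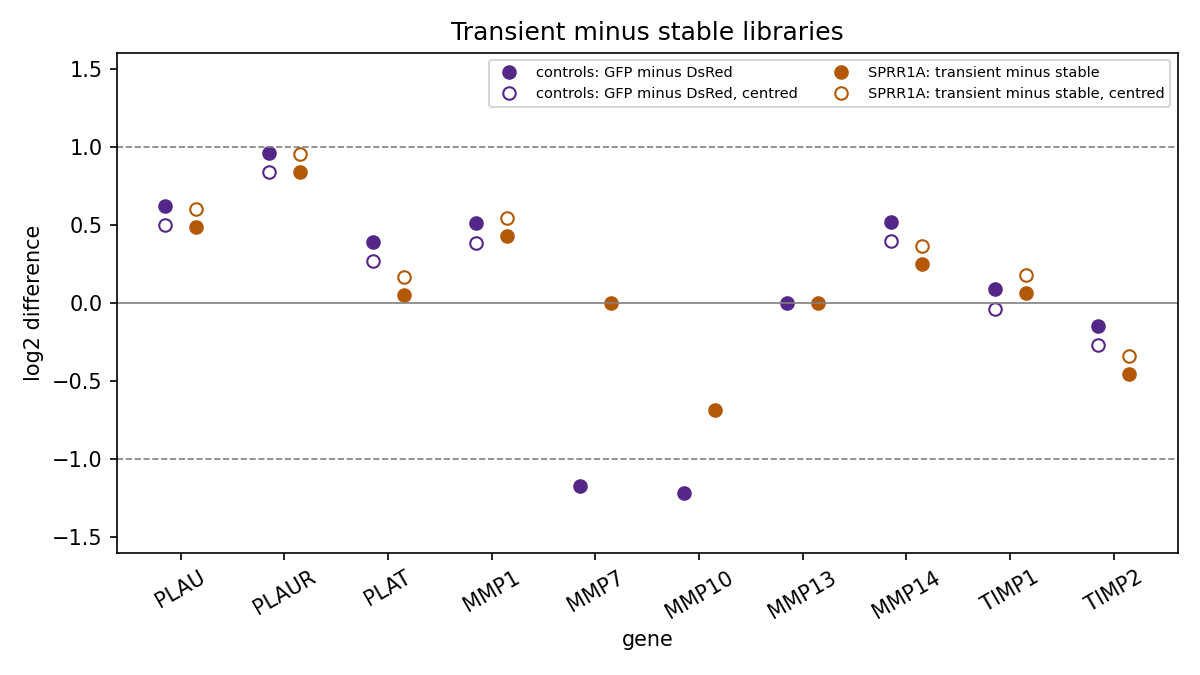
The log2 difference of each member between transient and stable cells, for the controls (GFP minus DsRed) and for the SPRR1A libraries. Filled points are the deposited values, open points are centred on the median of all well expressed entities, and dashed lines mark the 2-fold threshold. PLAUR is highest in both comparisons, whereas MMP10 and TIMP2 lie below 0 in both.

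The genes most like PLAU and PLAUR in pattern were sought among 9647 other entities that reached a TPM of 5 in every library, by the root mean square distance of the 4 log2 values after each gene's mean was subtracted. PLAUR was taken because its range over the libraries, 0.96, was the widest of those members. Nearest to PLAU were B4GALT3 (distance 0.0096), TRIP4 (0.016) and ARHGEF5 (0.016). Nearest to PLAUR were PRSS22, a serine protease (0.020), RRAGC (0.020) and MR1 (0.024). With 4 libraries and this many genes, such small distances are a description of these values. Among the members, PLAU and MMP1 were closest (0.062), and PLAUR and TIMP2 were farthest apart (0.60).

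Of 16 other genes of the plasminogen system, 10 were above the floor in every library and 4 were at 0 throughout, among them plasminogen itself (PLG), which is made by the liver. The most abundant were ANXA2 (11.66 to 11.97), which with S100A10 (9.68 to 10.28) forms a plasminogen-binding complex at the cell surface, and ENO1 (10.61 to 10.89), a glycolytic enzyme that also binds plasminogen. SERPINB2, which encodes the inhibitor PAI-2, was the sole gene of the list past the threshold in any comparison. It was at 1.30 and 0.07 in the stable SPRR1A and DsRed libraries and 2.33 and 2.56 in the transient SPRR1A and GFP libraries, so that it was 1.23 higher in stable SPRR1A cells and 0.23 lower in transient SPRR1A cells (-0.23). Against their stable counterparts it was 2.49 higher in GFP and 1.03 higher in transient SPRR1A cells. Of all entities above the floor, 0.947% were past the threshold for stable SPRR1A against DsRed. The share was 7.52% for GFP against DsRed and 3.59% for transient against stable SPRR1A. SERPINB2 lay close to the floor in stable DsRed cells, so the size of its differences from that library depends on how the floor is read. Its calls were not tested on the other scales.

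Of the 18 other metalloproteinase genes listed, 17 were found. Only 5 were above the floor in every library, and 11 were at 0 in all, MMP9 and MMP3 among them. The most abundant were MMP15, a membrane-type enzyme (4.73 to 5.37), MMP2, the gelatinase that MMP14 activates (2.75 to 3.23), and MMP28 (2.32 to 3.01). No gene of this list was past the threshold within a model (0 of 17 in both). MMP19 was at 0.17 and 0.02 in the stable SPRR1A and DsRed and at 1.21 and 1.15 in the transient SPRR1A and GFP libraries. It was past the threshold for GFP against DsRed (1.14), beside 7.52% of all entities above the floor. For transient against stable SPRR1A it was past it too (1.04), beside 3.59%. Its stable values lay close to the floor, so the size of both differences depends on how the floor is read. These calls were not tested on the other scales.

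Among 9 other inhibitors and partners, 6 were above the floor in every library and 0 passed the threshold in any comparison. The most abundant were BSG (8.61 to 8.76), a membrane glycoprotein known as an inducer of metalloproteinases, CD44 (8.62 to 8.95), the hyaluronan receptor, and LCN2 (7.61 to 8.01), which binds MMP9. RECK, A2M and TFPI2, which are further protease inhibitors, were at 0 in all libraries. Of 12 ADAM and ADAMTS genes, 8 were above the floor throughout and 0 passed the threshold. ADAM9 (6.59 to 7.28), ADAM10 (5.93 to 6.58) and ADAM15 (6.10 to 6.29) were the most abundant.

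The AP-1 and ETS factors, families of transcription factors known to act on protease promoters, were all above the floor (12 of 12), and 0 passed the threshold within either model. FOSL1 (8.13 to 8.43), JUNB (7.18 to 7.49) and JUN (6.31 to 7.28) were the most abundant. Between the controls, 3 were past the threshold, all higher in GFP cells, namely FOS (log2 difference 1.83), FOSB (2.08) and FOSL2 (1.23), beside 7.52% of all entities above the floor. Between the SPRR1A libraries, FOS (1.88) and FOSB (1.44) were, beside 3.59%. FOS and FOSB were low in the stable libraries, at no more than 1.55 and 2.54, and the error at such levels is unknown. Their calls were not tested on the other scales. The rise was not shared by all factors. FOSL1 differed by -0.19 between the controls and by -0.20 between the SPRR1A libraries, and JUNB by -0.16 in both. JUN was higher, by 0.97 and 0.76. The median difference of the list was 0.62 for GFP against DsRed and 0.43 for transient against stable SPRR1A, beside 0.12 and -0.11 over all well expressed entities. The sets are unlike, since the list median takes in factors that are not well expressed, FOS among them. For GFP against DsRed the median over entities was 0.34 at a mean log2 TPM from 1 to 3 and 0.07 from 5 to 7. MMP10, whose window holds the AP-1 letters shown above, was lower in both transient libraries, and PLAUR, whose window also holds them, was higher. MMP7, the other member with these letters, was at 0 in both transient libraries and above 0 in stable DsRed cells alone. MMP7 and MMP10 both lie near the floor. Any link between these factors and the members was not tested.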

How the data were processed

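Paired-end, stranded mRNA libraries of 4 PK-1 cultures were aligned by the authors with Strand NGS, at its defaults, to hg38 transcripts and normalized as TPM, and the log2 of the TPM was deposited for 53826 entities. The software version, annotation release, read counts and treatment of shared reads are not given in the sources used here. Such values keep no read depth, so counting error cannot be computed, and with 1 library per group no test was made.

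Differences of the deposited log2 values were computed over all entities, called beyond 2-fold as in the study, and read beside the share of all entities called. Entities that reached a TPM of 5 in both libraries were termed well expressed. The step of 0.5 was added after the values were seen. Alternatives were log2(TPM + 1), log2(TPM + 0.1), the floor taken as a TPM of 0, a TPM minimum of 5, centring on the median of well expressed entities, and SPRR1A left out of the total. The members and lists were chosen with earlier results of these data known. All members were named, with the 3 most abundant genes of each other list, its genes past 2-fold, and the 3 genes nearest in pattern to PLAU and to the member of widest range. Not all ratios between genes are reported here. Positions came from RefSeq (GRCh38.p14) and GENCODE 44, and promoters from RefSeq. The code for the calls was run on simulated data without noise, where 200 of 200 changed genes were recovered and 0 of 9635 others called. The changed genes were shifted past the threshold and the others were left equal to their control, so this outcome was fixed in advance. It checks the code and says nothing of the error of calls between single libraries. Python 3.11.15, numpy 2.4.6, pandas 2.3.3 and matplotlib 3.10.9 were used.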

Additional observations from a re-analysis of the deposited data

How the results depend on the processing

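No paired analysis was possible because every group is a single library. In the stable model the count of members past the 2-fold threshold fell from 1 to 0 under log2(TPM + 1) and under the TPM minimum of 5. Between the controls it fell from 2 to 0 under both, and to 1 with the floor taken as a TPM of 0. These changes follow from construction, since MMP7 and MMP10 lie near the floor. The median difference of the members above the floor in a comparison moved, in the stable model, from 0.034 to -0.026 after centring. For transient SPRR1A against GFP it moved from -0.14 to 0.047 after centring and 0.015 with SPRR1A left out of the total. Between the controls the median moved from 0.39 to 0.27 after centring and 0.51 with the TPM minimum, and between the SPRR1A libraries from 0.16 to 0.27 after centring and 0.30 with SPRR1A left out. After centring, members past 0.5 numbered 1 in place of 4 between the controls and 3 in place of 1 between the SPRR1A libraries, where leaving out SPRR1A also gave 3. Centring turned the sign of 3 members in stable cells, 5 in transient cells and 1 between the controls (TIMP1), and of 0 between the SPRR1A libraries. With 1 library per group and no read counts, the error of low members such as MMP7 and MMP10 is unknown.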
